A study of Mus musculus with 17 samples.

Results

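The miRNAs described here are mmu-miR-203-3p, mmu-miR-205-5p, mmu-miR-182-5p and mmu-miR-375-3p, 4 of the 357 miRNA assays of a serum PCR panel. They were taken by name as miRNAs known from epithelial and endocrine cells. All 4 belong to the 338 assays detected often enough to be tested. Serum was collected at necropsy from 17 mice in 3 groups: 3 healthy wild-type FVB/N mice, 7 Autotaxin transgenic mice (AT-ATX) without tumors, called tumor-free below, and 7 AT-ATX mice with spontaneous tumors, called tumor mice. Autotaxin is released from cells and produces lysophosphatidic acid, a lipid that signals to neighboring cells. Both transgenic groups carry the transgene, so they differ in the presence of tumors, and the wild-type mice differ from both in genotype. The promoter of the transgene, the background strain of the transgenic mice, their ages and the site of the tumors are not given in the sources used here. Each sample is named as 1 mouse, and a question mark stands in the label of tumor replicate 5.

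A miRNA is a short RNA that lowers the output of messenger RNAs carrying a match to its seed, the bases near its 5′ end. miR-203 is abundant in the upper layers of the skin, where it limits the stem cell factor p63 as keratinocytes differentiate. miR-205 is abundant in basal cells of skin and glands and, with the miR-200 family, holds down the transcription factors Zeb1 and Zeb2, which repress epithelial genes. miR-182 is made from 1 precursor transcript with miR-183 and miR-96 and is best known from sensory cells of the eye and ear and from epithelia. miR-375 is the leading miRNA of pancreatic islet cells, where it limits insulin secretion, and is also made in other endocrine and epithelial cells. In serum, the number of cells that release a miRNA, the amount each releases and its clearance cannot be told apart.

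Mature sequences are printed for the members with an entry in the RefSeq table used here (GRCm38.p6), 3 of 4, and for the cluster partners of miR-182, because seeds and positions show which of these RNAs could be read as relatives. Each is written 5′ to 3′ with its seed, bases 2 to 8, in capitals.
miR-203-3p: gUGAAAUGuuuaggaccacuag
miR-205-5p: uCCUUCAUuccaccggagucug
miR-182-5p: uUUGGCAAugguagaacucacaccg
miR-183-5p: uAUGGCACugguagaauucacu
miR-96-5p: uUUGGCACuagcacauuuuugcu
The seed of miR-182-5p matched that of miR-96-5p at 6 of 7 positions and that of miR-183-5p at 5 of 7. The seeds of miR-203-3p and miR-205-5p matched at 0 of 7 positions, and miR-182-5p matched them at 1 and 2 positions. Of the 260 mouse assays with a sequence in the table, 0 others carried the seed of miR-203-3p, miR-205-5p or miR-182-5p.

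The 3 members with an entry lie on separate chromosomes. miR-203-3p is encoded at chr12:112130927-112130948 on the plus strand. miR-205-5p lies at chr1:193507503-193507524 on the minus strand, within the long noncoding RNA gene Mir205hg. miR-182-5p lies at chr6:30165962-30165986 on the minus strand, within the long noncoding RNA gene Mirc35hg. On the same strand, miR-96-5p lies at higher coordinates, chr6:30169506-30169528, 3520 bases from miR-182-5p. miR-183-5p lies 183 bases further, at chr6:30169711-30169732. Read along the minus strand, the order is therefore miR-183-5p, miR-96-5p and miR-182-5p. Other arms of the 4 hairpins and rat assays of the same names, 11 in all, matched 0 assays of the panel, so each member was read by a single assay.

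The values are quantification cycles (Ct), where each cycle earlier stands for about 2 times as much template at full PCR efficiency. To give a level, the miRNA's own Ct was subtracted from the mean over 252 assays with a reading in every mouse. They are on a log2 scale, relative to the panel and not to a volume of serum. The mean Ct of these 252 assays ranged from 27.0 to 29.98 in wild-type mice, 28.14 to 30.5 in tumor-free mice and 27.95 to 31.67 in tumor mice, and between 312 and 356 assays were detected per mouse. The number of samples, not a read depth, limits the precision. miR-205-5p had the lowest median Ct of the 4, 27.68, which was 67th of 357 assays from the lowest Ct. miR-203-3p was 97th with a median Ct of 28.79, and miR-375-3p was 120th with 29.68. miR-182-5p was 343rd with 35.16, close to the highest Ct in the table, 36.998, and was detected in 15 of 17 mice. Ct values of different assays also depend on each assay's efficiency, so the order does not give relative copy numbers.

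The tumor mice were compared with the tumor-free mice to ask which serum miRNAs differ with tumors among transgenic mice. The mean levels of all 4 miRNAs were lower in tumor mice, by 0.75 to 1.78 on the log2 scale, and no difference passed an adjusted p of 0.05. The 4 differences had a median of -0.99, where the median of all tested assays was 0.14 and 44.4% of assays lay below 0. The count of members called was 0 of 4 in limma with Benjamini-Hochberg adjustment, where 1.48% of all 338 assays were called. At an unadjusted p under 0.05, miR-203-3p and miR-182-5p were lower, and 8.88% of all assays were lower at that threshold. Of the 338 differences, 9 were lower than that of miR-182-5p, 27 lower than that of miR-375-3p, 40 lower than that of miR-203-3p and 52 lower than that of miR-205-5p.

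**Figure D1:**
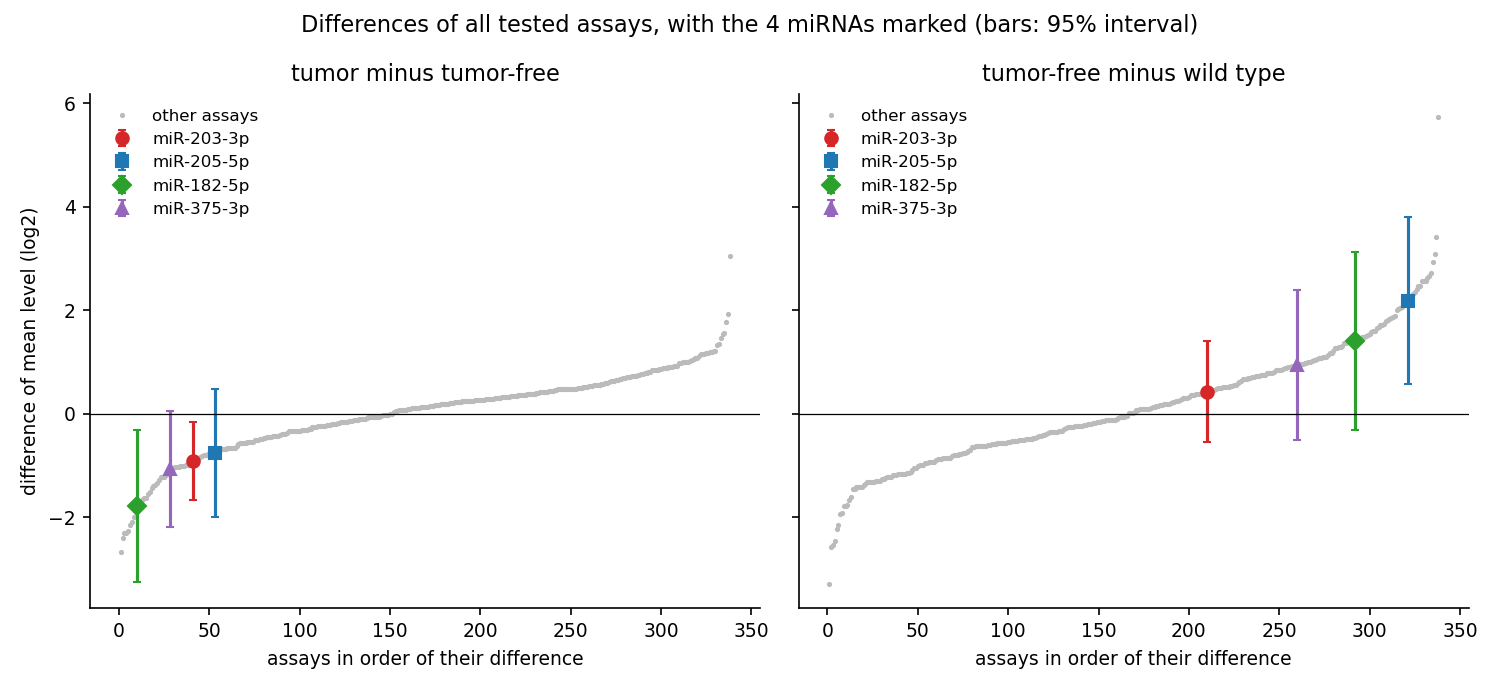
Difference of mean level (log2, vertical axis) for each of the 338 tested assays in order of its difference (horizontal axis), for tumor minus tumor-free mice and for tumor-free minus wild-type mice, with the 4 members marked and their 95% intervals. The members lie in the lower range on the left, from -1.78 to -0.75, and above the middle on the right, from 0.43 to 2.19, although on raw Ct or against spike-ins miR-203-3p and miR-375-3p fall below 0 on the right; both panels use the same tumor-free mice.

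miR-203-3p, the differentiation miRNA of skin, had levels of 0.22, 1.22, 1.40, 0.60, 1.53, 1.20 and 0.78 in tumor-free replicates 1 to 7. In tumor replicates 1 to 7 its levels were 0.50, 0.54, -0.40, 0.14, -1.04, 0.44 and 0.43. The groups overlapped only through tumor-free replicate 1, and tumor replicates 3, 4 and 5 lay below every tumor-free mouse. The mean was 0.99 ± 0.47 (SD, n = 7) in tumor-free and 0.09 ± 0.60 (SD, n = 7) in tumor mice. The difference was -0.91 (SE 0.36, 95% interval -1.66 to -0.16), or 1.88 times lower at full PCR efficiency, with an unadjusted p of 0.0203 and an adjusted p of 0.179 in limma. An exact two-sided permutation test gave p = 0.00699, and 0.122 after adjustment over all assays. With 7 mice against 7 the smallest exact p is 0.000583.

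In wild-type replicates 1 to 3, miR-203-3p stood at 1.27, -0.25 and 0.67, a spread that covered most of both transgenic groups. The wild-type mean of 0.56 ± 0.77 (SD, n = 3) lay between the tumor-free and tumor means. The tumor-free mice differed from wild type by 0.43 (SE 0.46, adjusted p = 0.589 in limma), and on raw Ct and against spike-ins this difference lay below 0, at -0.59 and -0.65. Leaving out wild-type replicate 2 moved it to 0.02, and leaving out replicate 1 to 0.79. The tumor mice differed from wild type by -0.48 (SE 0.46, adjusted p = 0.574 in limma). Leaving out replicate 1 of the wild-type mice gave -0.12 here, and leaving out replicate 2 gave -0.88. In order of level, neither neighboring pair of groups differed beyond its spread.

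miR-205-5p, the basal epithelial miRNA, stood at 1.55, 2.25, 2.98, 1.69, 3.31, 2.97 and 1.96 in tumor-free replicates 1 to 7. In tumor replicates 1 to 7 it stood at 2.99, 2.45, 1.35, 2.13, -1.14, 2.80 and 0.85. Replicates 1, 2, 4 and 6 of the tumor mice lay inside the tumor-free range, and replicates 3, 5 and 7 below it. The difference of -0.75 (SE 0.60, 95% interval -2.0 to 0.49) had an adjusted p of 0.568 in limma and an exact permutation p of 0.25, two-sided. Without tumor replicate 5, the sample with the question mark, it was -0.29 (SE 0.50).

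The wild-type levels of miR-205-5p were -1.33, 0.15 and 1.78 in replicates 1 to 3, with a mean of 0.20 ± 1.55 (SD, n = 3), against 2.39 ± 0.70 (SD, n = 7) in tumor-free and 1.63 ± 1.44 (SD, n = 7) in tumor mice. Of the 7 tumor-free mice, 5 lay above every wild-type mouse, and wild-type replicate 3 lay inside the tumor-free range. The tumor-free mice differed from wild type by 2.19 (SE 0.77, 95% interval 0.58 to 3.80), or 4.56 times at full PCR efficiency. The unadjusted p in limma was 0.0101 and the adjusted p 0.157, and 320 of the 338 differences were lower. The exact permutation p was 0.025, where 3 mice against 7 cannot go below 0.00833, and 0.132 after adjustment. The difference was 1.42 (SE 0.84) without wild-type replicate 1 and 2.98 (SE 0.85) without wild-type replicate 3. The tumor mice differed from wild type by 1.43 (SE 0.77, adjusted p = 0.258 in limma). That value was 0.67 when wild-type replicate 1 was left out and 2.22 when replicate 3 was.

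**Figure D2:**
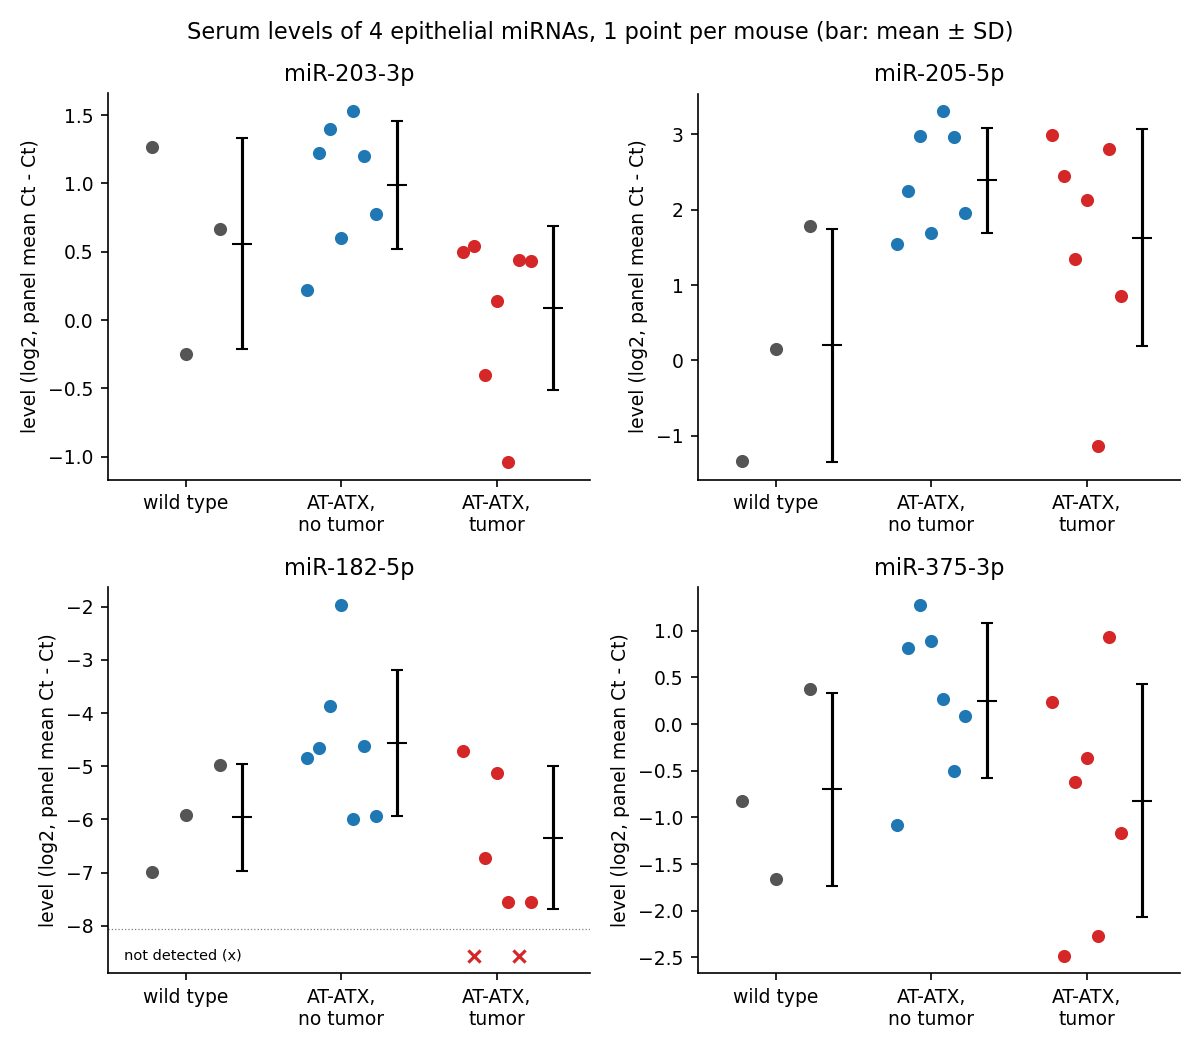
Level of each member (log2, panel mean Ct minus Ct, vertical axis) in each mouse by group, with 1 point per mouse, crosses for mice in which miR-182-5p was not detected, and bars for the mean and SD. Tumor mice have the lower mean of the transgenic groups in every panel, the groups overlap in every panel, and the wild-type miR-205-5p points spread from -1.33 to 1.78.

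The wild-type spread of miR-205-5p came with the panel mean. Its raw Ct was nearly the same in the 3 wild-type mice, 28.33, 27.99 and 28.20, a range of 0.343 cycles, while the mean Ct of the 252 shared assays ranged over 2.98 cycles in them. miR-203-3p moved with the panel there, with a range of 3.58 cycles. In tumor-free mice the raw Ct of miR-205-5p ranged over 2.51 cycles and in tumor mice over 2.92. Its raw Ct averaged 28.17 ± 0.173 (SD, n = 3) in wild-type, 27.0 ± 0.809 (SD, n = 7) in tumor-free and 28.12 ± 1.01 (SD, n = 7) in tumor mice. On raw Ct the difference of tumor-free from wild-type mice was 1.17 (SE 0.78) and that of tumor from wild-type mice 0.05 (SE 0.78), in the direction of level.

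**Figure D3:**
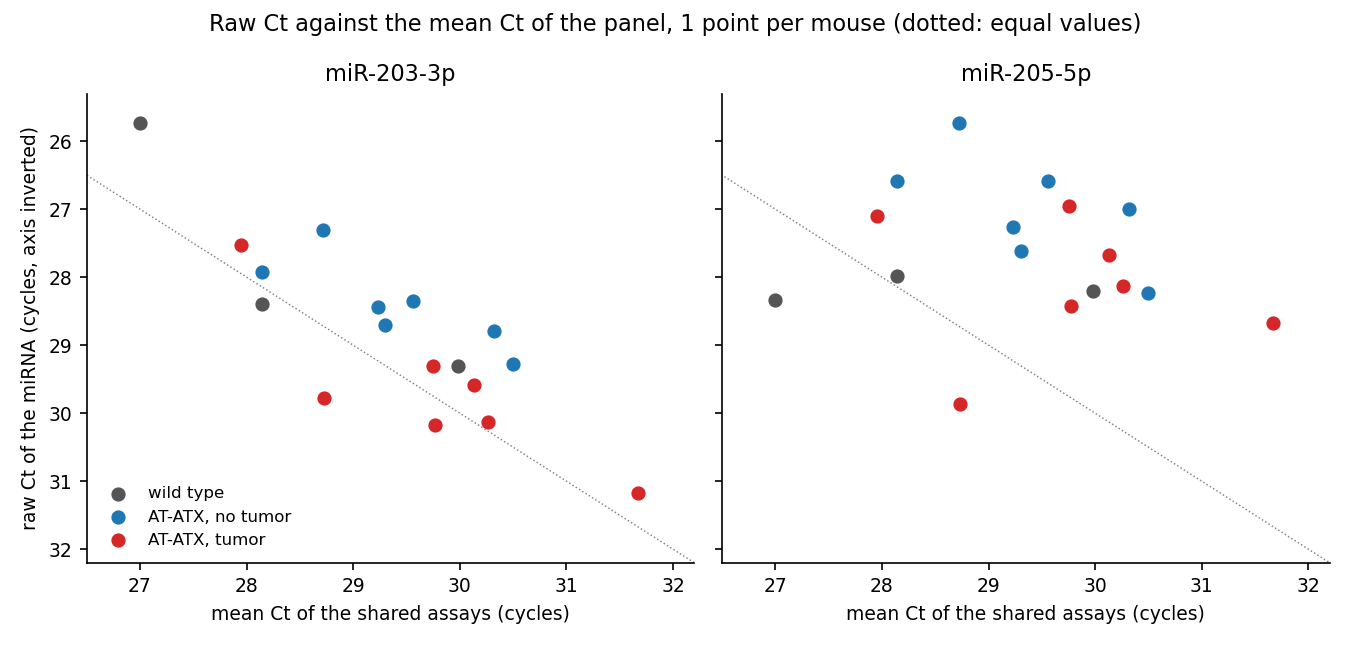
Raw Ct of miR-203-3p and miR-205-5p (cycles, vertical axis inverted so that more template is higher) against the mean Ct of the 252 shared assays (cycles, horizontal axis), with 1 point per mouse and a dotted line where both are equal. miR-203-3p follows the panel in all 3 groups, while miR-205-5p of the 3 wild-type mice stays within 0.343 cycles over a panel range of 2.98 cycles.

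The gap between the raw Ct of miR-205-5p and that of miR-203-3p needs no scaling. miR-205-5p lay -1.39 ± 0.32 cycles (SD, n = 7, range -1.78 to -1.03) from miR-203-3p in tumor-free mice, so it was read earlier in each of them by a similar amount. The gap was -1.55 ± 0.99 (SD, n = 7, range -2.49 to 0.10) in tumor mice and 0.36 ± 1.97 (SD, n = 3, range -1.11 to 2.6) in wild-type mice. In tumor mice, replicates 5 and 7 stood at 0.10 and -0.42, apart from the other 5, which lay between -2.49 and -1.75. A small spread was not particular to these miRNAs: among the 45 pairs of 10 member and epithelial assays read in every transgenic mouse, the SD of the gap in tumor-free mice ranged from 0.13 to 1.33 cycles. It was smaller than that of miR-205-5p and miR-203-3p in 4 pairs, all within the miR-200 family.

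miR-182-5p was detected in all wild-type and tumor-free mice and in 5 of 7 tumor mice, with no reading in tumor replicates 2 and 6 (Fisher's exact p = 0.462 against tumor-free). An empty reading need not mean a low amount, since miR-200c-3p was empty in tumor-free replicate 4 and lay between Ct 25.60 and 31.86 in the other 16 mice. Its levels were -4.85, -4.66, -3.86, -1.96, -6.00, -4.62 and -5.93 in tumor-free replicates 1 to 7. In the 5 tumor mice with a reading, replicates 1, 3, 4, 5 and 7, they were -4.72, -6.73, -5.13, -7.56 and -7.55. Replicates 3, 5 and 7 lay below every tumor-free mouse, and replicates 1 and 4 inside their range.

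The mean level of miR-182-5p was -4.56 ± 1.37 (SD, n = 7) in tumor-free and -6.34 ± 1.34 (SD, n = 5) in tumor mice. The difference of -1.78 (SE 0.69, 95% interval -3.24 to -0.32), or 3.44 times, was the widest of the 4, with an unadjusted p of 0.0194 and an adjusted p of 0.179 in limma. The exact permutation p was 0.0505, and 0.294 after adjustment. The unread tumor mice did not enter this fit, and with them set to a Ct of 37 the difference was -1.99 (SE 0.61, adjusted p = 0.0821 in limma). Without tumor-free replicate 4, the highest mouse, it was -1.35 (SE 0.61). These readings lie late in the PCR: 5 of the 5 tumor readings and 3 of the 7 tumor-free readings were at or above Ct 35.

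Wild-type replicates 1 to 3 had miR-182-5p levels of -6.99, -5.92 and -4.97, with a mean of -5.96 ± 1.01 (SD, n = 3). Tumor-free mice differed from them by 1.41 (SE 0.82, adjusted p = 0.311 in limma), with 5 of 7 above every wild-type mouse. On raw Ct this difference was 0.39 and against spike-ins 0.33. Tumor mice differed from wild type by -0.37 (SE 0.86, adjusted p = 0.829 in limma), and the groups overlapped.

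The cluster partners of miR-182-5p were read in the same serum. miR-183-5p stood at -5.12, -6.44 and -5.20 in wild-type replicates 1 to 3 and between -4.61 and -2.42, with a median of -4.28, in tumor-free mice. It stood between -6.11 and -4.0, with a median of -4.96, in the 6 tumor mice that read it. On the panel scale all 7 tumor-free mice lay above all wild-type mice, which holds for 6.8% of the 338 assays in that direction. On raw Ct these groups overlapped, with 32.12 to 35.18 in wild-type and 31.72 to 35.1 in tumor-free mice. The difference of level between tumor-free and wild-type mice was 1.60 (SE 0.60, adjusted p = 0.157 in limma). Between tumor and tumor-free mice it was -1.04 (SE 0.48, unadjusted p = 0.0436, adjusted p = 0.269 in limma).

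miR-96-5p was read in 3 wild-type, 5 tumor-free and 5 tumor mice. Its mean level was -5.83 ± 0.33 (SD, n = 3), -4.51 ± 1.88 (SD, n = 5) and -4.98 ± 1.19 (SD, n = 5) in these groups. Tumor mice differed from tumor-free mice by -0.47 (SE 0.79, adjusted p = 0.788 in limma), and tumor-free from wild-type mice by 1.32 (SE 0.91, adjusted p = 0.41). For tumor-free minus wild-type mice, the 2 partners' differences had a median of 1.46 on the panel scale, 0.64 on raw Ct and 0.55 against spike-ins. Of the 2 partners, 0 passed the adjusted threshold in any of the 3 comparisons, and only miR-183-5p passed an unadjusted p under 0.05, in the comparisons with tumor-free mice.

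Tumor-free replicate 4 had the lowest Ct of all mice for each of the 3 cluster miRNAs: 31.26 for miR-182-5p, 31.72 for miR-183-5p and 30.87 for miR-96-5p. With group means taken off, the levels of miR-182-5p and miR-183-5p correlated over 15 mice with r = 0.53 (permutation p = 0.0691, adjusted over the 3 cluster pairs 0.104) and rho = 0.31 (permutation p = 0.283). Without the 2 mice farthest from the median, r was 0.01, so the relation rests on those mice. On raw Ct, which also holds the amount of RNA in each sample, r was 0.61 (permutation p = 0.0186, adjusted 0.0279), and 0.42 without the 2 farthest. For the levels of miR-182-5p and miR-96-5p, over 11 mice, r was 0.50 (permutation p = 0.202). For miR-183-5p and miR-96-5p, over 12 mice, it was 0.61 (permutation p = 0.0653). Without the 2 farthest mice these were -0.05 and 0.23. On raw Ct they were 0.67 (permutation p = 0.044, adjusted 0.044) and 0.84 (permutation p = 0.00246, adjusted 0.00738). Without the 2 farthest, the raw Ct values were 0.72 and 0.84.

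**Figure D4:**
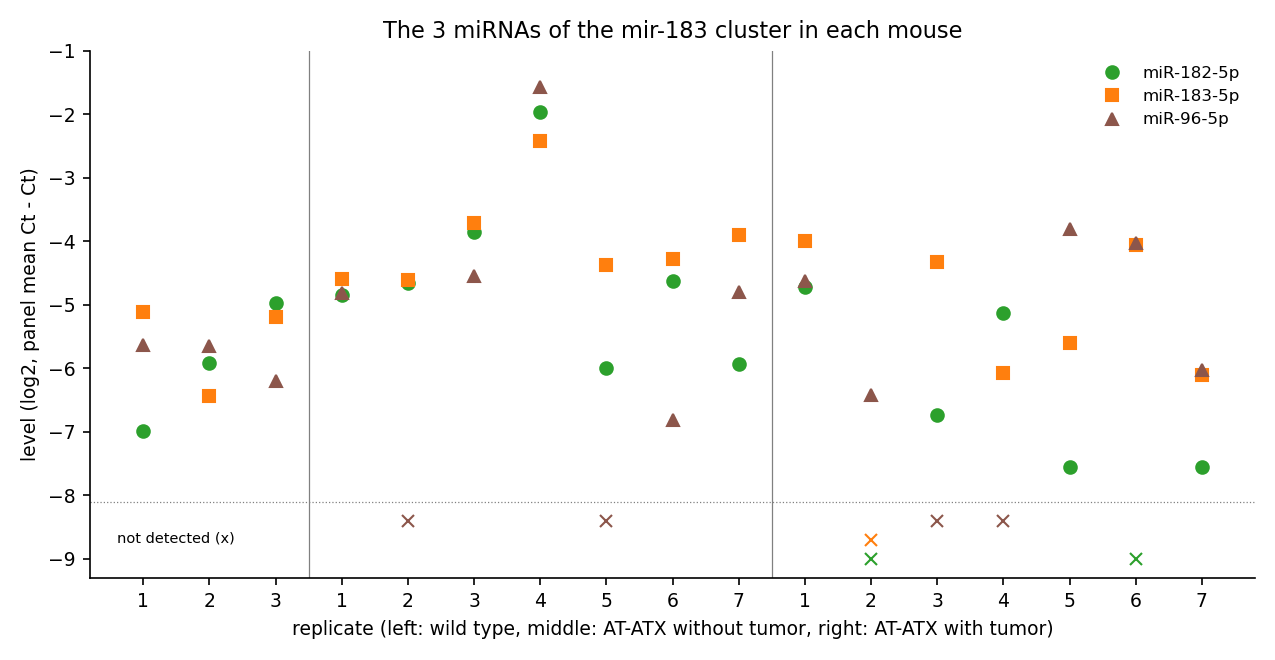
Level (log2, panel mean Ct minus Ct, vertical axis) of miR-182-5p, miR-183-5p and miR-96-5p in each mouse (horizontal axis, replicates by group), with crosses in the lower band for mice without a reading. Tumor-free replicate 4 is highest for all 3 miRNAs. On this scale all 7 tumor-free mice lie above the wild-type mice for miR-183-5p, although their raw Ct values overlap.

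miR-375-3p, the islet miRNA, had levels of -1.08, 0.82, 1.28, 0.89, 0.27, -0.50 and 0.09 in tumor-free replicates 1 to 7. In tumor replicates 1 to 7 they were 0.24, -2.48, -0.62, -0.36, -2.27, 0.93 and -1.17. Tumor replicates 2, 5 and 7 lay below every tumor-free mouse, and the other 4 lay within the tumor-free range. The mean was 0.25 ± 0.83 (SD, n = 7) in tumor-free and -0.82 ± 1.25 (SD, n = 7) in tumor mice. The difference was -1.07 (SE 0.54, 95% interval -2.19 to 0.05), or 2.10 times, with an adjusted p of 0.313 in limma and an exact permutation p of 0.0903, two-sided.

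Wild-type replicates 1 to 3 had miR-375-3p levels of -0.82, -1.66 and 0.38, with a mean of -0.70 ± 1.03 (SD, n = 3), close to the mean of tumor mice. Tumor-free mice differed from wild type by 0.95 (SE 0.69, adjusted p = 0.435 in limma), and on raw Ct and against spike-ins the difference lay below 0, at -0.07 and -0.13. Tumor mice differed from wild type by -0.12 (SE 0.69, 95% interval -1.57 to 1.33, adjusted p = 0.938 in limma), an interval that holds differences of over 2 times either way.

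The other pancreatic miRNAs were read on the same panel, 3 of the 5 listed, of which 2 could be tested. miR-7a-5p, which islets share with nervous tissue, differed between tumor and tumor-free mice by 0.89 (SE 0.78, adjusted p = 0.624 in limma), and miR-217-5p, of acinar cells, by -0.01 (SE 0.90, adjusted p = 0.993). miR-216a-5p, also of acinar cells, was read in 2 of 3 wild-type, 5 of 7 tumor-free and 4 of 7 tumor mice and was not tested. Of the tested pair, 0 passed in any comparison, also at an unadjusted p under 0.05. Their differences had a median of 0.44 for tumor minus tumor-free mice (0.04 on raw Ct, 0.12 against reference miRNAs). miR-375-3p stood at -1.07 (-1.43 on raw Ct, -1.40 against reference miRNAs). Tumor-free replicate 3 had the highest level of all mice for miR-375-3p (1.28), miR-216a-5p (-0.47) and miR-217-5p (-1.50), and the lowest for miR-7a-5p (-5.03).

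The tumor-free mice were compared with wild-type mice to ask which serum miRNAs differ with the transgene. All 4 members had higher mean levels in tumor-free mice on the panel scale, with a median difference of 1.18 against 0.03 for all assays. On raw Ct and against spike-ins, miR-203-3p and miR-375-3p lay below 0. In limma 0 of 4 were called, where 0.592% of all assays were. At an unadjusted p under 0.05, only miR-205-5p was higher, where 12.4% of all assays were. On raw Ct the median of all assays was itself -1.07 and against spike-ins -1.12. Relative to that median the members stood at 0.48 (miR-203-3p), 2.24 (miR-205-5p), 1.46 (miR-182-5p) and 1.00 (miR-375-3p) on raw Ct. Taking off this median scales to the panel again, where the same values were 0.40, 2.16, 1.38 and 0.93, so it gives no separate support. This comparison and that of tumor with tumor-free mice share the tumor-free mice, so a high value there moves both.

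In tumor against wild-type mice, 0 of 4 members were called, where 8.28% of all assays were. The members' differences were -0.48 for miR-203-3p, 1.43 for miR-205-5p, -0.37 for miR-182-5p and -0.12 for miR-375-3p, with a median of -0.25 against 0.19 for all assays. An unadjusted p under 0.05 was reached by 0 of 4. On raw Ct the members' differences were -1.86, 0.05, -1.68 and -1.50 in the same order, with a median of -1.59 against -1.22 for all assays. There only miR-203-3p had an unadjusted p under 0.05 in limma (0.0403, adjusted 0.166). On raw Ct 15 of the 338 assays were called, and 0 of 4 members. Against spike-ins they were -1.59, 0.32, -1.36 and -1.24, with a median of -1.30 against -0.94.

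Other epithelial miRNAs give the setting of these values. The list holds the miR-200 family, which holds down Zeb1 and Zeb2 together with miR-205, as well as miR-31, miR-183, miR-96 and miR-224. Of 14 names, 12 matched an assay and 11 were tested. The panel read miR-224 with a rat assay, which is outside these counts. Its difference was 0.63 (SE 0.56, adjusted p = 0.641 in limma) for tumor minus tumor-free mice. It was 0.68 (SE 0.77, adjusted p = 0.609) for tumor-free minus wild-type mice and 1.30 (SE 0.81, adjusted p = 0.324) for tumor minus wild-type mice. In tumor against tumor-free mice 10 of 11 differences lay below 0, with a median of -0.65, and 0 were called in limma, with 3 lower at an unadjusted p under 0.05. Of all 338 assays 44.4% lay below 0, 1.48% were called and 8.88% were lower at that unadjusted threshold. Several of the 11 are arms of 1 hairpin or come from 1 cluster, so they are not 11 separate observations. On raw Ct, against reference miRNAs and on quantile values 11 of 11 lay below 0, with miR-31-3p called on quantile values (adjusted p = 0.0222). In the miR-200 family the differences were -0.34 for miR-200a-3p, -0.94 for miR-200b-3p, -0.81 for miR-200c-3p, -0.34 for miR-141-3p and -0.65 for miR-429-3p, with adjusted p from 0.389 to 0.775 in limma. The minor arms miR-200b-5p and miR-141-5p stood at -0.42 and 0.11, and miR-200a-5p was detected too rarely to be tested. miR-31-5p and miR-31-3p, the 2 arms of a hairpin active in skin and other epithelia, stood at -1.43 (SE 0.43, adjusted p = 0.115) and -1.63 (SE 0.46, adjusted p = 0.0843).

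Against wild-type mice, 8 of the 11 epithelial miRNAs had higher means in tumor-free mice, with a median of 0.80 and 0 called (1 higher at an unadjusted p under 0.05). Of all assays 0.592% were called and 12.4% were higher at that unadjusted threshold. On raw Ct 7 and against spike-ins 8 of the 11 had lower means. In tumor against wild-type mice 7 of 11 lay above 0, with a median of 0.15, where on raw Ct and against spike-ins 11 of 11, against reference miRNAs 6 of 11 and on quantile values 9 of 11 lay below 0. On the panel scale 2 were called in limma, both lower, where 8.28% of all assays were called. These were miR-31-5p, lower by 2.03 (SE 0.56, adjusted p = 0.0275 in limma), and miR-31-3p, lower by 2.15 (SE 0.59, adjusted p = 0.0275 in limma). An exact permutation test gave p = 0.00833 and 0.025 in the same order. After adjustment these were 0.201 and 0.249, so neither was called by that test. On raw Ct both were called (adjusted p = 0.0435 and 0.0158), against spike-ins only miR-31-3p was (0.0968 and 0.0464), and against reference miRNAs neither was (0.0875 and 0.0573). The epithelial miRNAs did not share 1 pattern across the 3 groups. miR-200c-3p stood at 1.26 ± 0.30 (SD, n = 3), 0.65 ± 0.62 (SD, n = 6) and -0.16 ± 1.08 (SD, n = 7) in wild-type, tumor-free and tumor mice, where miR-205-5p was lowest in wild-type mice. The gap from the Ct of miR-205-5p to that of miR-200c-3p was -1.06 ± 1.81 cycles (SD, n = 3) in wild-type, 1.86 ± 0.92 (SD, n = 6) in tumor-free and 1.79 ± 1.55 (SD, n = 7) in tumor mice.

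**Figure D5:**
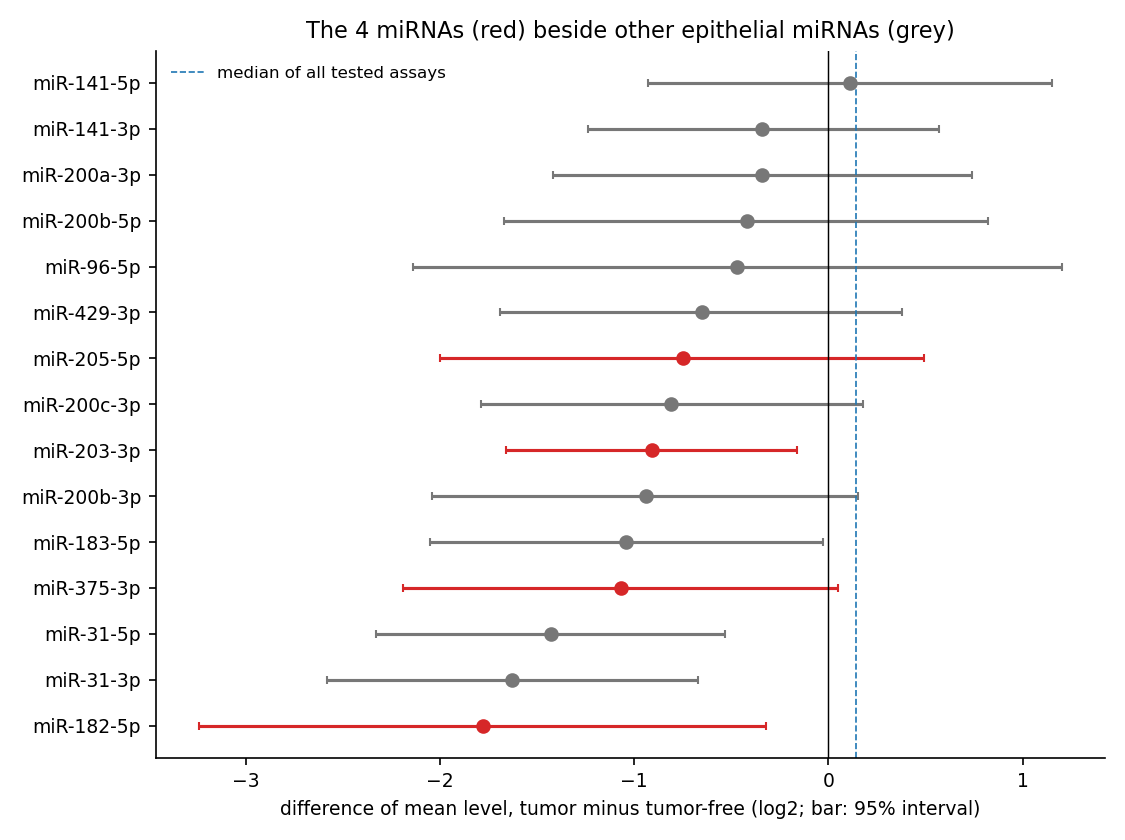
Difference of mean level between tumor and tumor-free mice (log2, horizontal axis) for the 4 members in red and the 11 tested miRNAs of the epithelium list in grey, with 95% intervals, a solid line at 0 and a dashed line at the median of all tested assays, 0.14. All those drawn but miR-141-5p lie below 0, from -1.78 for miR-182-5p to 0.11, and none passes an adjusted p of 0.05. The rat assay of miR-224, at 0.63, is not drawn.

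The members were compared with each other over mice, with each group's mean taken off and p-values adjusted over the 6 pairs. miR-203-3p and miR-205-5p correlated over 17 mice with r = 0.55 (permutation p = 0.0548, adjusted 0.13) and rho = 0.45 (permutation p = 0.127, adjusted 0.22), and with r = 0.33 without the 2 mice farthest from the median. Within the tumor-free mice r was 0.93 and within the tumor mice 0.85. Over the 14 transgenic mice alone, a set chosen after these values were seen, r was 0.85 (permutation p = 0.00074, adjusted 0.00444) and rho 0.83 (permutation p = 0.00071, adjusted 0.00426), with r = 0.67 without the 2 farthest. On raw Ct the same 14 mice gave r = 0.67 (permutation p = 0.0165, adjusted 0.0844) and rho = 0.79 (permutation p = 0.00202, adjusted 0.0121).

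miR-182-5p and miR-375-3p correlated over 15 mice with r = 0.60 (permutation p = 0.0305, adjusted 0.13) and rho = 0.60 (permutation p = 0.0272, adjusted 0.158), and with r = 0.51 without the 2 farthest. The remaining 4 pairs had r from 0.02 to 0.53, with adjusted permutation p from 0.13 to 0.94. Against spike-ins, 3 pairs each had an adjusted permutation p of 0.0349 for r. These were miR-203-3p with miR-375-3p (r = 0.60), miR-182-5p with miR-375-3p (r = 0.62) and miR-203-3p with miR-182-5p (r = 0.35, where the panel scale gave 0.02). For rho their adjusted permutation p was 0.0622, 0.061 and 0.0598 in the same order. Against reference miRNAs miR-182-5p with miR-375-3p had r = 0.70 (adjusted permutation p = 0.0166). All levels share the panel mean of their sample, so they are not free of each other.

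For each member, the 3 most similar assays were found by the same group-centered r among assays detected in all 17 mice, as a description. For miR-203-3p these were miR-376c-3p (r = 0.78), miR-24-3p (0.72) and miR-23b-3p (0.69), among 251 assays over 17 mice. For miR-205-5p they were the rat assay miR-450a-5p (0.82), miR-145a-5p (0.80) and the mouse assay miR-450a-5p (0.78). For miR-375-3p they were miR-342-3p (0.74) and the rat and mouse assays of miR-215 (0.70 each). For miR-182-5p, among 252 assays over 15 mice, they were miR-192-3p (0.60), miR-375-3p (0.60) and miR-350-3p (0.58). None was on the epithelium list, of which only 7 assays were detected in all 17 mice and could be named. miR-182-5p, not read in every mouse, could not be named for the other members. The same holds for its partners miR-183-5p and miR-96-5p.

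RNA of lysed red blood cells was read by the hemolysis index, for which the Ct of the red cell miRNA miR-451a was subtracted from that of miR-23a-3p. The index was 5.61 ± 2.07 (SD, n = 3) in wild-type, 4.38 ± 0.839 (SD, n = 7) in tumor-free and 3.97 ± 1.97 (SD, n = 7) in tumor mice. Its highest values were 7.82 in wild-type replicate 2 and 7.09 in tumor replicate 4. Wild-type replicate 2 had the lowest wild-type level of miR-203-3p (-0.25) and miR-375-3p (-1.66), but not of miR-205-5p or miR-182-5p. Group-centered r with the index was -0.51 for miR-203-3p (permutation p = 0.0784, adjusted over 4 members 0.314; rho = -0.61, permutation p = 0.0292, adjusted 0.117). It was -0.53 without the 2 farthest mice, 0.29 within tumor-free mice and -0.59 within tumor mice. Scaled to 5 reference miRNAs, r was -0.79 (permutation p = 0.00588, adjusted 0.0235). For miR-205-5p, miR-182-5p and miR-375-3p r on the panel scale was -0.08, 0.01 and -0.06, each with an adjusted permutation p of 0.98. Scaled to the reference miRNAs it was -0.45, -0.35 and -0.47, each with an adjusted permutation p of 0.199. With the index as a covariate in limma, the differences between tumor and tumor-free mice were -0.98 (miR-203-3p, adjusted p = 0.0548), -0.78 (miR-205-5p, 0.406), -1.78 (miR-182-5p, 0.107) and -1.09 (miR-375-3p, 0.201).

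Markers of other tissues were read beside the members, and their part in the members' values was not tested. For tumor minus tumor-free mice, 3 of 3 tested red cell miRNAs lay above 0 (median 0.36; 1 of 3 on raw Ct or quantile values, 2 of 3 against reference miRNAs or by plate). In that comparison 4 of 4 liver miRNAs lay below 0 on every scale tried (median -1.51). The called one, 1 of 4 where 1.48% of all assays were called, was miR-802-5p, named after its value was seen. On raw Ct or against spike-ins or reference miRNAs 0 liver miRNAs were called. In that comparison 5 of 6 muscle miRNAs lay below 0 (median -0.28; 4 of 6 on quantile values or by the panel median). Further, 3 of 4 white cell miRNAs lay below 0 (median -0.67), 2 of 3 platelet miRNAs above 0 (median 0.17; 1 of 3 on raw Ct, against reference miRNAs or on quantile values) and 2 of 2 neuron miRNAs above 0 (median 0.80). The mean level of the 4 liver miRNAs lay between 3.77 and 4.96 in tumor-free and between 2.03 and 3.98 in tumor mice. For tumor-free minus wild-type mice 6 of 6 muscle miRNAs lay above 0 (median 1.95, 0 called; 5 of 6 on raw Ct, against spike-ins or on quantile values), and their mean level ranged from -1.78 to 2.53 in wild-type and from -0.05 to 4.64 in tumor-free mice. In that comparison 3 of 3 red cell miRNAs lay below 0 (median -1.17, -2.19 on raw Ct; 2 of 3 on quantile values) and 4 of 4 liver miRNAs did (median -0.45; 3 of 4 on quantile values). White cell miRNAs lay above 0 in 3 of 4 (median 1.34, 0.32 on raw Ct), with 0 called in any of these 3 lists. For tumor minus wild-type mice the liver miRNAs lay below 0 in 4 of 4 (median -2.01) and 3 were called lower, where 8.28% of all assays were called. These were miR-802-5p, miR-194-5p and miR-192-5p, named after their values were seen, and 0 were called against spike-ins. Of the 4 white cell miRNAs 1 was called higher and 1 lower, and of the 2 neuron miRNAs 1 was called higher (0 on raw Ct or against spike-ins). Muscle miRNAs lay above 0 in 6 of 6 (4 of 6 on raw Ct) and red cell miRNAs below 0 in 3 of 3, with 0 called in either list. Of 3 platelet miRNAs 0 were called.

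Tumor replicate 5 lay below every tumor-free mouse for all 4 members. Without it, the differences between tumor and tumor-free mice were -0.72 for miR-203-3p, -0.29 for miR-205-5p, -1.47 for miR-182-5p and -0.83 for miR-375-3p. In 4 mice, tumor-free replicates 4, 5 and 7 and tumor replicate 1, the last decimals of the values had 1 pattern where the other 13 mice had 2, and the labels name no batch. Without those 4 mice the differences were -0.99, -1.03, -2.24 and -1.13 in the same order.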

How the data were processed

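Ct values of 365 assays in 17 serum samples were analysed, 357 of them miRNAs (317 named for mouse, 40 for rat) and 8 controls. The authors deposited them as not normalized, per the name of the table. Per the labels' protocols, RNA from serum was reverse transcribed with a universal kit and run in SYBR Green PCR on ready-made serum panels. Threshold setting, plate calibration and the detection limit are not given in the sources used here. Empty cells were taken as not detected. Nothing but the sample names says that replicates are separate animals, so p-values set each difference against the spread between these samples.

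Levels were the mean Ct of the 252 assays detected in all samples minus the Ct of the assay. Testing required a reading in 2 or more wild-type, 5 or more tumor-free and 5 or more tumor mice. The 3 groups entered 1 fit in limma 3.58.1 (lmFit and eBayes, R 4.3.3), two-sided, adjusted by Benjamini-Hochberg over 338 assays within each comparison, with a threshold of 0.05. The fit was tested on simulated data. Every adjusted p of a single miRNA comes from this fit unless another test is named. Permutation tests were exact for differences and used 100000 reorderings within groups for correlations (Python 3.11.15, numpy 2.4.6, pandas 2.3.3, scipy 1.17.1).

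Alternatives changed the scaling (raw Ct, spike-ins, 5 reference miRNAs, median, plate, quantile), the treatment of undetected or late readings, the assays and samples used, the variance model and the covariates. The label number of the transgenic mice, whose meaning is not stated, was used as a random block and, among the mice that share one, as a fixed term. The miRNAs named were the 4 members, their cluster partners, the epithelium and pancreas lists and the 3 most similar assays per member. The other lists were red cell, liver, muscle, white cell, platelet and neuron. The members and lists were chosen with earlier results of these data known.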

Additional observations from a re-analysis of the deposited data

How the results depend on the processing

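Each of the 12 differences (4 members, 3 comparisons) was recomputed under up to 34 settings, 17 of which left out 1 mouse. Of the 397 values, 389 kept their direction, 8 lay on the other side of 0, and 0 had an adjusted p under 0.05. For tumor minus tumor-free mice all 4 members stayed below 0 in every setting that gave a value. Over the other 17 settings, which include leaving out the 4 mice with 1 decimal ending and keeping only mice with shared label numbers, that difference ranged from -1.27 to -0.79 for miR-203-3p (adjusted p 0.0548 to 0.984), from -1.12 to -0.36 for miR-205-5p (0.406 to 0.984), from -2.24 to -1.54 for miR-182-5p (0.0821 to 0.984) and from -1.65 to -0.95 for miR-375-3p (0.201 to 0.984). A limit of Ct 35 left too few readings of miR-182-5p for a value. For tumor-free minus wild-type mice, raw Ct and spike-ins moved miR-203-3p to -0.59 and -0.65 and miR-375-3p to -0.07 and -0.13, where the median of all assays stood at -1.07 and -1.12. Leaving out each mouse in turn, the difference of tumor from wild-type mice ranged from -0.89 to 0.12 for miR-182-5p and from -0.60 to 0.42 for miR-375-3p. The relation to the hemolysis index passed the threshold for miR-203-3p with reference miRNAs (r = -0.79). The relation changed sign near 0 for miR-205-5p and miR-375-3p with the level of miR-451a in place of the index (0.02 and 0.04). For miR-182-5p it was 0.01 on the panel scale. There it lay below 0 on raw Ct (-0.17), spike-ins (-0.15) and reference miRNAs (-0.35), and the cause was not tested. The tumor-free and tumor mice share 2 label numbers, with 3 mice each; within those numbers, a replicate block chosen after seeing the data, the differences were -1.04, -0.36, -1.54 and -1.65 for miR-203-3p, miR-205-5p, miR-182-5p and miR-375-3p, with 0 called. With the label number as a random block (consensus correlation 0.0703) 0 members were called in any comparison. The number of wild-type mice, 3, and the late readings of miR-182-5p limit the precision.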
